A study of Mus musculus with 8 samples.

Results

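Joining of a Cas9-broken chromosome 14 end to the rest of the genome was compared between cells carrying polyglutamine-expanded (92Q) and normal-length (10Q) ataxin-7, at bait site 1. The members were the distinct junctions of these 2 libraries: 816 with 92Q and 5542 with 10Q, together 6358 of the 11310 distinct junctions in all 8 libraries of the series. A junction was defined by the chromosome, strand and 5′ end of the aligned prey read, with repeated reads collapsed, and no measured difference was used to choose it. The cells were Neuro-2a, a mouse neuroblastoma line. They were transfected with a plasmid for ataxin-7 of either tract length together with a PX458 plasmid that carries SpCas9 and the sgRNA for site 1. Both groups therefore carried ataxin-7 from a transfected plasmid on top of the cells' own, and both carried Cas9 and GFP. Cells were collected 48 h after transfection, DNA of GFP-positive cells was used, and 3 transfections were pooled into 1 library a side, so no replicate library exists. A site 1 library with the sgRNA but no ataxin-7 plasmid (sgRNA only) and one with a non-targeting sgRNA are given as background; the protocol text mentions such controls for another site only, and the sample labels were followed.

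Ataxin-7 is a subunit of the SAGA chromatin-modifying complex, and expansion of its polyglutamine tract causes spinocerebellar ataxia type 7. A double-strand break is normally resealed by end joining between its own ends; when an end is resected, or when another break lies nearby, it can instead be joined further along the same chromosome or to another chromosome. Broken ends meet most often within one chromosome, so translocation maps of a single cut are usually dominated by prey close to the cut.

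The 2 oligonucleotides that set where the assay looks are shown because one set the intended cut and the other primed every read. Capitals in the sgRNA mark the 12 bases nearest its 3′ end, the part that pairs beside the PAM, and the bait primer is biotinylated at its 5′ end.
sgRNA for site 1: ggtagacaTCAGCGCTGTTG
bait primer for site 1: actaaaaagagcgcccctctttc
The bait end, the position where most reads of the uncut, non-targeting library start, lay on the plus strand at chromosome 14 position 98168726 (mm10). It is inside Dach1 (97786846 to 98169765), a transcription factor gene of the dachshund family, and 1039 bp from the end of the gene body where transcription starts. A divergent lncRNA gene, Gm33583 (98169904 to 98188620), begins 1178 bp downstream of the bait end, downstream meaning the direction in which the bait read runs.

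The 92Q library was far shallower, with 963 reads against 13152 for 10Q, 8812 for the sgRNA alone and 625 for the non-targeting sgRNA. All reads carried the name of 1 sequencing run, and the median aligned length was 141 bases in each of these 4 libraries. Reads starting exactly at the bait end, as unrearranged DNA would give, were 17 of 963 with 92Q (1.77%, exact 95% interval 1.03 to 2.81) and 413 of 13152 with 10Q (3.14%, 2.85 to 3.45). They were 2.16% with the sgRNA alone and 60.5% with the non-targeting sgRNA. Each interval and test below covers counting error between libraries, not variation between cultures, so every difference is one between these libraries and has no replicate check. How many fragments were sequenced before the authors' selection of junction reads is not given in the sources used here.

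A single prey position offered a common yardstick across the libraries; it was picked after its values were seen. It lies on the minus strand of the X chromosome at position 113298692, inside Dach2, the paralog of the bait gene. This position gave 32 reads in the 92Q library, 38 in the 10Q library, 44 with the sgRNA alone and 31 with the non-targeting sgRNA. The count thus moved little across libraries whose totals differed many-fold, whether or not the bait was cut, and the position was 3.32% of all reads with 92Q but 0.289% with 10Q. Per read at the Dach2 position, the 92Q library had 7.63 reads within 10 kb of the bait end (5.26 to 11.4) and the 10Q library 202 (147 to 286). The sgRNA-only library had 124 and the non-targeting library 13.2. On the same scale, reads at the bait end itself stood at 0.531 with 92Q (0.277 to 0.986), 10.9 with 10Q (7.79 to 15.6), 4.32 with the sgRNA alone and 12.2 with the non-targeting sgRNA. Other interchromosomal reads stood at 19 with 92Q (13.3 to 28.0), 89.3 with 10Q (64.9 to 126), 51.0 with the sgRNA alone and 5.65 with the non-targeting sgRNA. Since the count at the Dach2 position is nearly constant, each ratio follows the read count of its class in that library. It thus mixes the read total with the make-up of the library, and no result rests on these ratios. The part of library yield in the results that follow was not tested.

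At equal reads the libraries differed in the kind of junction and hardly in their number. The 10Q reads were thinned to the 963 of the 92Q library by computing, for each junction, the exact chance that at least 1 of its reads is kept. The 10Q library was then expected to hold 782 distinct junctions against the 816 observed with 92Q, a ratio of 1.04 (0.945 to 1.15). Without thinning the ratio was 0.147. Reads per junction, 2.37 with 10Q and 1.18 with 92Q at full depth, became 1.23 and 1.18. With positions within 5 bp counted once, the equal-read ratio was 1.32, from 757 and 573 such groups, so part of the 10Q count was made of close neighbours.

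**Figure D1:**
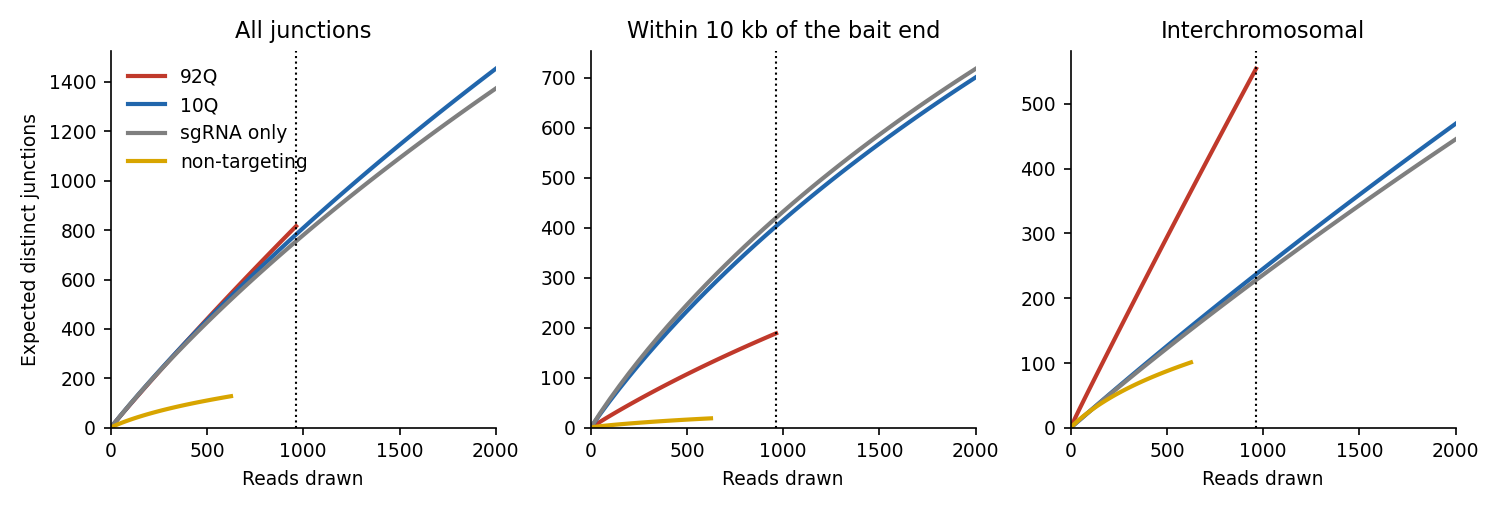
Expected distinct junctions (y) against the number of reads drawn (x) for all junctions, those within 10 kb of the bait end and interchromosomal ones; the dotted line marks the 963 reads of the 92Q library. The curves for all junctions of 92Q and 10Q nearly coincide there (816 and 782), while 92Q is below 10Q near the bait and above it between chromosomes.

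With 92Q, 554 of 816 junctions joined the bait to another chromosome, 67.9% (64.6 to 71.1); in the thinned 10Q library the number was 237 of 782, 30.3% (27.1 to 33.7). The difference of 37.6 percentage points passed (adjusted p = 4.34e-51 by Fisher's exact test). Of the 10 shares tested between the libraries, this was the only one to pass, 10% of them. The sgRNA-only library thinned to the same reads gave 30.2% (26.9 to 33.6), and the non-targeting library, at its own 625 reads, 78.9% (70.8 to 85.6). Counted as distinct junctions, the 92Q share thus lay between the cut and the uncut background. Counted as reads, interchromosomal prey made up 66.5% of all reads with 92Q and 26.1% with 10Q. It was 26.0% with the sgRNA alone and 33.0% with the non-targeting sgRNA, so the 92Q share then lay above all of these. In the non-targeting library 60.5% of reads started at the bait end, and these collapse to a single junction. Distinct junctions are used again below. Among reads of mapping quality 30 or more alone, with 10Q thinned again, 92Q stood at 60.5% and 10Q at 22.6% (adjusted p = 6.41e-28 by Fisher's exact test). Among junctions with 2 or more reads, of which 92Q had only 57 and 10Q, unthinned here, 2303, they stood at 40.4% and 27.4%, no longer past the threshold (adjusted p = 0.0905 by Fisher's exact test).

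Beside the higher number between chromosomes stood a lower number on chromosome 14. At equal reads the 92Q library held 2.34 times the interchromosomal junctions of the 10Q library (2.00 to 2.73) and 0.480 times those of chromosome 14 (0.413 to 0.557). Within 10 kb of the bait end it held 189 junctions against 403 expected with 10Q, a ratio of 0.469 (0.392 to 0.559). From 10 kb to 1 Mb the numbers were 22 and 51, a ratio of 0.431 (0.249 to 0.724). Beyond 1 Mb they were 51 and 91, a ratio of 0.560 (0.390 to 0.798). A trend of the ratio with distance was not tested. The shares are parts of 1 total, and a lower number on chromosome 14 and a higher number elsewhere cannot be told apart from these values.

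**Figure D2:**
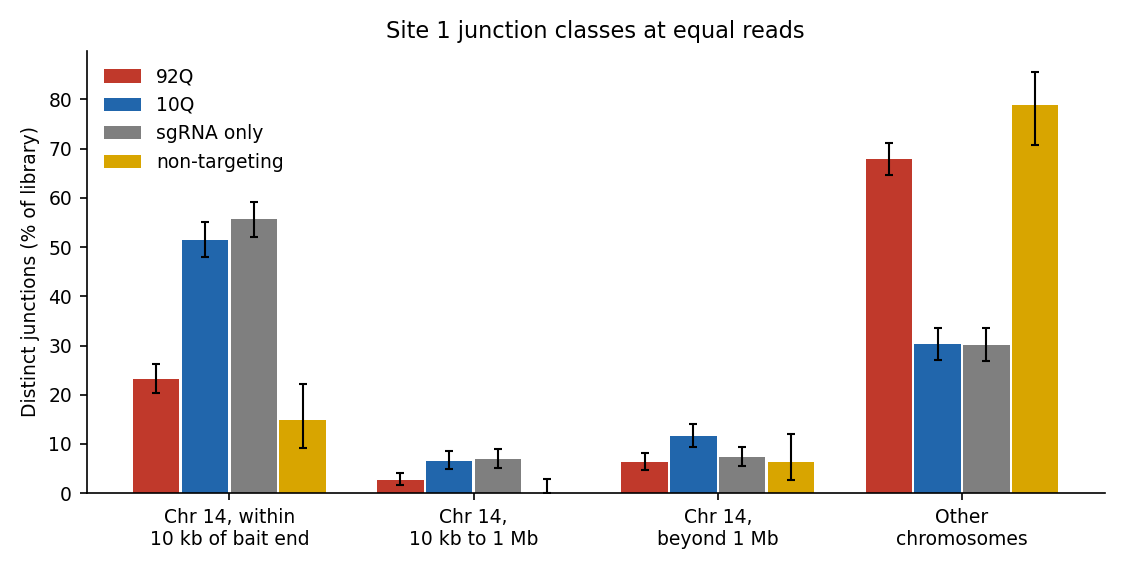
Share of distinct junctions (%) in 4 classes by library, with the 10Q and sgRNA-only libraries thinned to the 963 reads of 92Q and the non-targeting library at its own 625; bars are shares and whiskers exact 95% intervals. The 92Q bars stand apart from both cut libraries in the outer classes: 23.2% near the bait against 51.5% with 10Q, and 67.9% between chromosomes against 30.3%.

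Within chromosome 14 no share by distance passed the test between 92Q and 10Q once reads were equal. Of the chromosome 14 junctions, 72.1% lay within 10 kb of the bait end with 92Q (66.3 to 77.5) and 73.8% with 10Q (69.9 to 77.5; adjusted p = 0.713 by Fisher's exact test). Within 100 kb the shares were 77.9% and 80.0%, and within 1 Mb 80.5% and 83.2% (adjusted p = 0.713 and 0.627 by Fisher's exact test). At full depth 10Q had shown only 61.7% within 10 kb, 10.4 points below 92Q, a difference past the test that thinning removed and turned (adjusted p = 0.00354 unthinned by Fisher's exact test). The sgRNA-only library stood at 79.7% within 10 kb and the non-targeting library at 70.4% of 27 junctions.

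Close to the break, both libraries showed the same one-sided cloud of prey that runs downstream from the bait end in the bait's own orientation, the geometry that a deletion would give. Plus-strand downstream junctions were 148 of the 189 within 10 kb with 92Q (78.3%) and 84.5% with 10Q. The uncut, non-targeting library had the same geometry, with 17 of its 19 junctions within 10 kb (89.5%). With the bait end itself left out, their median distance from it was 1042 bp with 92Q (quartiles 480 and 1704) and 1003 bp with 10Q at equal reads (505 and 1906). At full depth the 10Q median had been 1445 bp. The distance classes that follow take all prey near the bait end, on either strand and either side of it. Over 100 to 500 bp, 92Q held 35 junctions and 10Q 75 expected, and over 500 bp to 1 kb 37 and 94. From 1 to 2 kb the numbers were 53 and 104, and from 2 to 5 kb 39 and 82. Those ratios ran from 0.394 to 0.510, and from 5 to 10 kb it was 0.367 (0.166 to 0.753). In the first 100 bp the numbers were 13 and 17, a ratio of 0.765 whose interval (0.342 to 1.67) includes 1.

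With all positions kept, reversed prey was the minority in both libraries. Minus-strand junctions upstream of the bait end numbered 23 with 92Q and 40 expected with 10Q, with medians of 2502 and 2615 bp. Minus-strand junctions downstream numbered 11 and 15. The plus-strand share within 10 kb was 82.0% with 92Q (75.8 to 87.2) and 86.4% with 10Q (82.6 to 89.6; adjusted p = 0.458 by Fisher's exact test), beside 87.9% with the sgRNA alone. All 19 such junctions of the non-targeting library were on the plus strand.

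**Figure D3:**
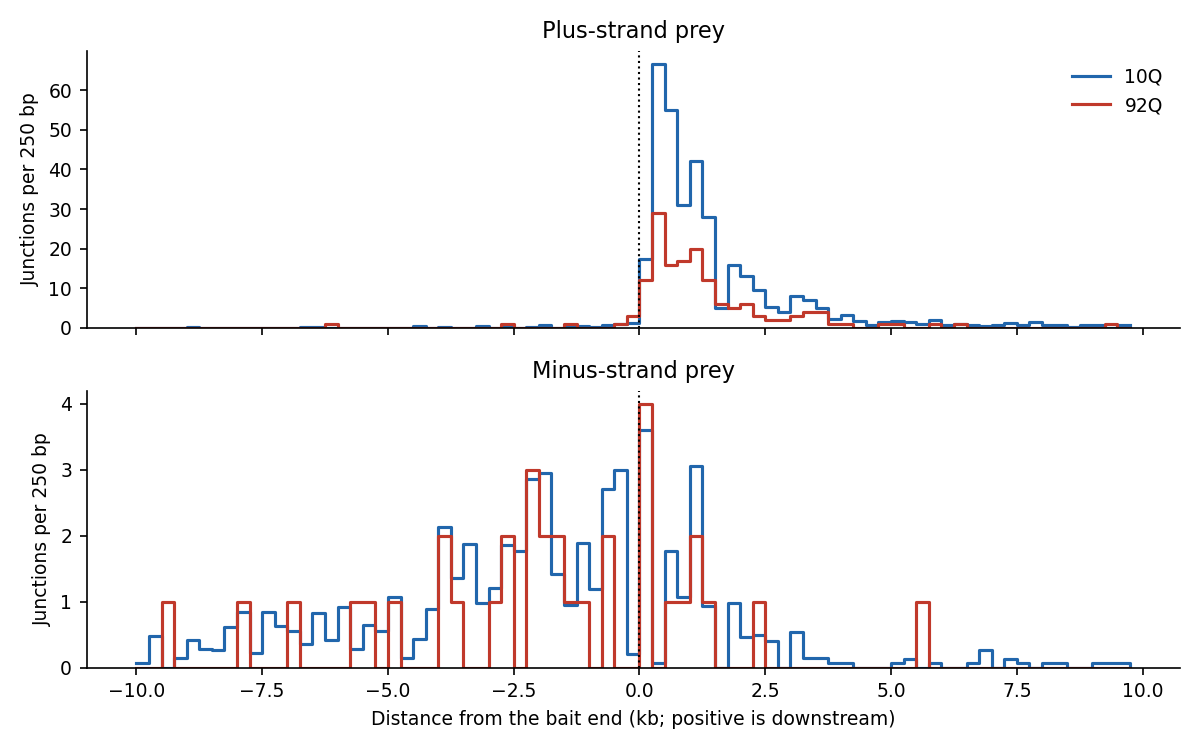
Distinct junctions per 250 bp (y) against distance from the bait end in kb (x, positive is downstream) for plus-strand and minus-strand prey, 92Q at its own counts and 10Q thinned to 963 reads. Both libraries have their plus-strand peak from 250 to 500 bp downstream, at 29 junctions with 92Q and 67 with 10Q, and few minus-strand junctions on either side.

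The genes beside the break took prey in like proportions. Of the junctions within 10 kb, the body of Dach1 held 110 with 92Q (58.2%, 50.8 to 65.3) and 236 expected with 10Q (58.6%, 53.6 to 63.4). Gm33583 held 65 (34.4%) and 143 (35.5%), and the gap between these genes 14 and 25. The Dach1 promoter, whose window covers that gap and the start of both genes, is printed because junctions fell all along it; capitals mark the 29 bases at which a 92Q junction lies, on either strand. The sequence is from RefSeq (GRCm38.p6), chr14:98169716-98170015, minus strand, 990 to 1289 bp downstream of the bait end.
Dach1 promoter: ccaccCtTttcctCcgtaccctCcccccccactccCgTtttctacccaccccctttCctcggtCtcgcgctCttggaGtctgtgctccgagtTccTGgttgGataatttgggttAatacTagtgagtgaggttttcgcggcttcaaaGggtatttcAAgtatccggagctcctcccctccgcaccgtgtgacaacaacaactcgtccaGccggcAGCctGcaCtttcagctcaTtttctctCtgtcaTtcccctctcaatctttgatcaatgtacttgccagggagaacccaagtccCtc
Of its 29 junctions with 92Q, 27 were on the plus strand. The window held 228 junctions with 10Q at full depth and 59 expected at equal reads. Of all junctions within 10 kb it made up 15.3% in the 92Q, 14.7% in the 10Q and 18.6% in the sgRNA-only library, so 92Q and 10Q differed there by less than 1 percentage point.

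Single positions near the break recurred across libraries. Of the 189 near junctions with 92Q, 118 (62.4%) had the same base and strand as a 10Q junction, which was 5.80% of the 2036 near junctions of 10Q, and 122 (64.6%) matched the sgRNA-only library. The positions below, with the bait end itself left out, were picked for having the most reads in the 10Q and sgRNA-only libraries together. Lower 92Q values are therefore in part built in. The plus-strand position 359 bp downstream had 145 reads with 10Q (1.10% of its reads), 34 with the sgRNA alone (0.386%) and 2 with 92Q (0.208%). The position at 472 bp had 66 reads (0.502%), 59 (0.670%) and 3 (0.312%), in the same order. None of these busiest positions had a read in the non-targeting library.

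Further out on chromosome 14 the 92Q library held few junctions. Beyond 10 kb the median distance was 14.9 Mb with 92Q (quartiles 0.432 and 56.8 Mb) and 4.24 Mb with 10Q at equal reads (0.174 and 25.2 Mb). It was 1.25 Mb for the sgRNA alone and 53.4 Mb over the 8 such junctions of the non-targeting library, and no test of these medians was run. It held 15 junctions from 10 to 100 kb, 7 from 100 kb to 1 Mb, 22 from 1 to 20 Mb and 29 over 20 Mb, where 10Q was expected to hold 34, 17, 49 and 43. The ratios were 0.441 (0.223 to 0.832), 0.412 (0.144 to 1.04), 0.449 (0.259 to 0.757) and 0.674 (0.406 to 1.11). The non-targeting library had 0 junctions in the first 3 of these classes, which allows up to 2.84% of its junctions in each, and 8 over 20 Mb. Of the 73 junctions beyond 10 kb with 92Q, 2 shared a base and strand with 10Q and 0 with the sgRNA-only library.

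Strand balance differed most in this outer part of the chromosome. Plus-strand prey was 30 of 73 with 92Q (41.1%, 29.7 to 53.2) and 80 of 142 with 10Q (56.3%, 47.8 to 64.6), a difference of -15.2 points that did not pass after adjustment (Fisher's exact test, p = 0.0436, adjusted p = 0.218). The sgRNA-only library stood at 49.5%. From 10 kb to 1 Mb, 12 of the 22 junctions with 92Q were upstream on the minus strand, 54.5%, against 27.4% with 10Q, and 3 were downstream on the plus strand, 13.6% against 39.0%. Beyond 1 Mb most prey of both libraries lay upstream, 20 junctions on the minus and 17 on the plus strand with 92Q and 26 and 36 expected with 10Q. These counts were not scaled to the length of chromosome on each side of the bait end, so they show no preference for a side. At full 10Q depth, in a single random draw of reads, in a count of reads and with positions merged within 5 bp the difference did pass (adjusted p = 0.0261, 0.0124, 0.0279 and 0.00742 by Fisher's exact test).

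Over 1 Mb from the bait end, the chromosome 14 genes with most 10Q prey were nearly empty with 92Q, at a depth where few junctions were expected. These genes were picked for their full-depth 10Q counts, so lower 92Q values are in part built in. Only Gpc6 among them was also picked for its 92Q count. Klf12, which encodes a Krüppel-like repressor and lies 1.70 Mb from the bait end, held 24 junctions with 10Q (19 of them well mapped, that is with a read of mapping quality 30 or more), 2.88 expected at equal reads, 2 with the sgRNA alone and 0 with 92Q. Klhl1, a neuronal actin-binding kelch protein gene 1.65 Mb away, held 17 with 10Q (2.05 expected) and 1 with 92Q. Pcdh9, a protocadherin gene, held 14 (1.49 expected) and 1. Gpc6 and Gpc5, neighbouring glypican genes, held 20 and 9 with 10Q (1.93 and 1.12 expected) and 3 and 0 with 92Q. Fhit, a fragile-site gene 87.0 Mb away, held 10 (1.00 expected) and 0, and Erc2, an active-zone scaffold gene, 5 (0.876 expected) and 0. No gene of this set was expected to hold more than 3 junctions at 963 reads, so a 0 with 92Q was within what that depth allows. Klhl33, with 2 poorly mapped junctions, was the other chromosome 14 gene named for 92Q; the 10Q library had 0 there.

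Between chromosomes most prey positions of both libraries were met once at this depth, at 1.16 reads per junction with 92Q and 1.06 with 10Q at equal reads. Of its 554 interchromosomal junctions 531 rested on 1 read, 20 on 2, and 3 on more. The 3 were the Dach2 position, a plus-strand position on chromosome 18 outside any gene body with 34 reads and 0 in each of the other site 1 libraries, and a position in Pkd1l3, a polycystin family gene, with 3. Of the 554, 525 (94.8%) were found in none of the other site 1 libraries; 10Q likewise shared 3.08% of its 2243 with the sgRNA-only library. Shared bases were 18 with 10Q (3.25% of 554, 0.802% of 2243), 18 with the sgRNA alone and 9 with the non-targeting library (1.62%, and 8.91% of that library's own). Besides Dach2, the 92Q positions seen in all 4 libraries were 1 in Shld1, which encodes a shieldin subunit that limits end resection, with 2 reads at mapping quality up to 42, and 1 in Atp6v1c1, a proton-pump subunit gene, with 1 read at a mapping quality of 0.

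Partner chromosomes were spread over the whole genome in both libraries, and none was called at equal reads. Of the 19 chromosomes tested, over 552 junctions with 92Q and 236 with 10Q, none passed (Fisher's exact test after adjustment, 0% of those tested), and 0 did at an unadjusted p under 0.05. The smallest p-values were those of X, with 16 junctions or 2.90% of the 92Q prey (1.67 to 4.66) against 5.93% with 10Q (3.28 to 9.75), and for chromosome 1, at 4.35% against 7.63% (adjusted p = 0.598 for both by Fisher's exact test). Chromosome 11 stood the other way, at 7.97% against 4.66%, and so did chromosome 17, at 6.34% against 3.81% (adjusted p = 0.598 and 0.676 by Fisher's exact test). With all 10Q reads chromosome 1 passed, at 4.35% against 8.18% (adjusted p = 0.0278 by Fisher's exact test).

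**Figure D4:**
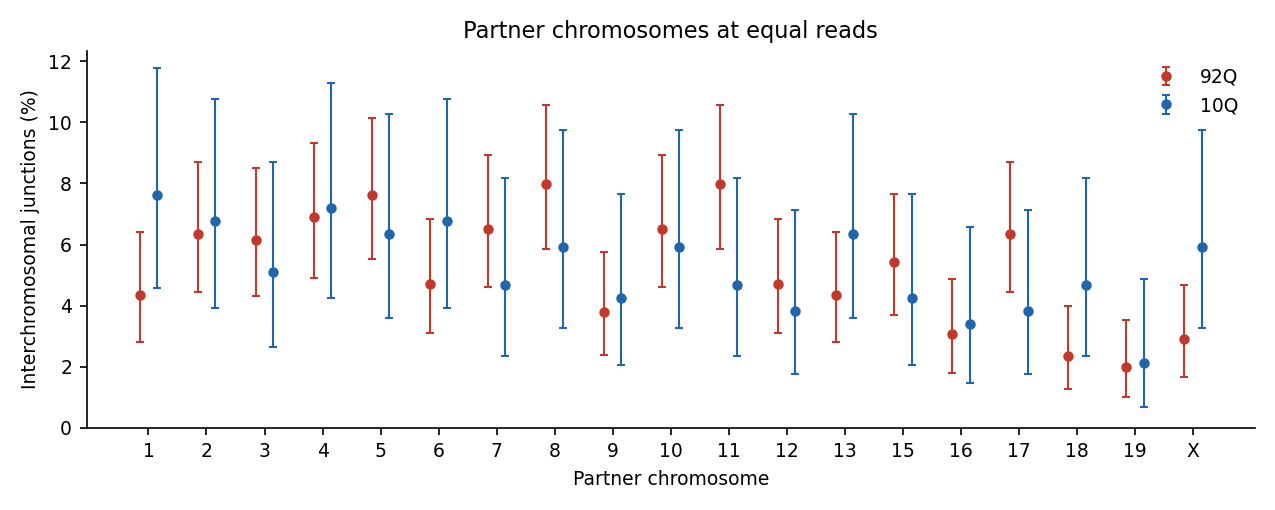
Share of interchromosomal junctions (%) on each partner chromosome, 92Q at its own counts and 10Q thinned to 963 reads; points are shares and whiskers exact 95% intervals. The intervals of 92Q and 10Q overlap on all 19 chromosomes.

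Mapping quality is a Bowtie2 score of how surely a read is placed. By the way Bowtie2 assigns it, a read with no second candidate alignment receives 0, 3, 8, 23, 24, 40 or 42 according to its mismatches, and the others mark a second candidate, as in repeats; a 0 can come from either kind of read. The second-candidate part of the interchromosomal prey was lower with 92Q than in the other cut libraries and higher than in the non-targeting background. Reads with a second-candidate value were 91 of 640 with 92Q (14.2%, 11.6 to 17.2), 912 of 3431 with 10Q (26.6%, 25.1 to 28.1), 30.7% in the sgRNA-only library and 2 of 206 with the non-targeting sgRNA (0.971%, 0.118 to 3.46). As junctions at equal reads the shares were 16.4% with 92Q (13.4 to 19.8) and 27.0% with 10Q (21.5 to 33.1), intervals that do not overlap; no test was fixed for this share. Within 10 kb of the bait end no read of either library had a second-candidate value. The well-mapped share was 44.2% of interchromosomal junctions with 92Q and 40.1% with 10Q, and 61.1% and 59.7% on chromosome 14 (adjusted p = 0.617 and 0.759 by Fisher's exact test).

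**Figure D5:**
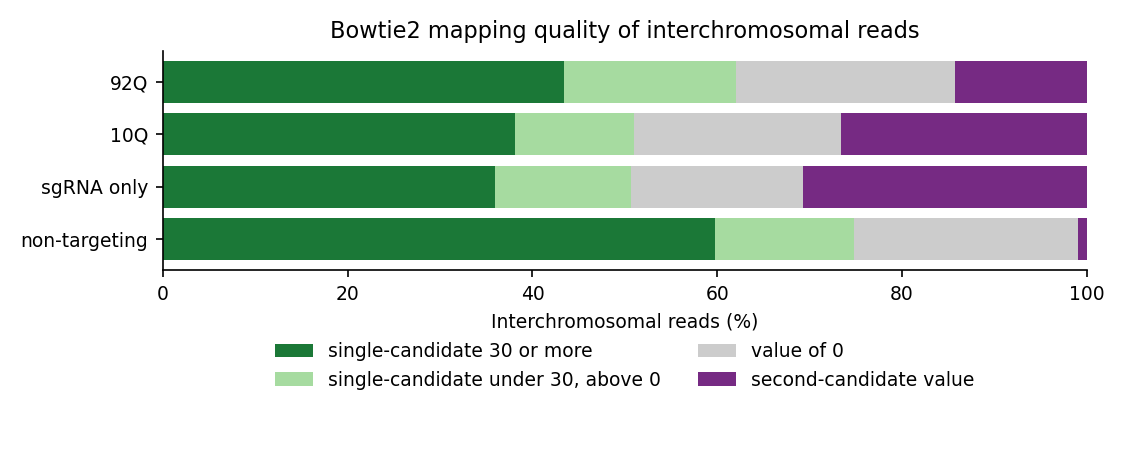
Interchromosomal reads (%) of each site 1 library, all reads used, by Bowtie2 mapping quality: values given to reads with no second candidate (30 or more, under 30, and 0, which both kinds of read can receive) and values that mark a second candidate. The second-candidate part is 14.2% for 92Q, 26.6% for 10Q, 30.7% for the sgRNA alone and 0.971% for the non-targeting library.

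Some of the 10Q prey was gathered in tight groups of poor mapping quality. With junctions linked by gaps of up to 100 bp, 10Q had 9 groups of 5 or more, holding 106 junctions at full depth and 16 expected at equal reads. None of them had a read above mapping quality 7. The largest, on chromosome 13 from 26615401 to 26615449, held 29 junctions and 120 reads with 10Q, and a group at the same place held 25 with the sgRNA alone and 3 with 92Q. Over all sizes 10Q had 54 groups holding 211 junctions at full depth. The 92Q library had 5 groups of 2 or 3 junctions, 11 in all, and the non-targeting library 0. Groups were formed at each library's own depth, so these group counts do not compare the libraries at equal reads.

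Protein-coding gene bodies held 249 of the 554 interchromosomal junctions with 92Q (44.9%, 40.7 to 49.2) and 94 of 237 with 10Q (39.7%, 33.4 to 46.2; adjusted p = 0.458 by Fisher's exact test), beside 38.6% with the sgRNA alone and 54.5% with the non-targeting sgRNA. At full 10Q depth the difference passed (adjusted p = 0.00371 by Fisher's exact test), and with mapping quality 30 the order turned, at 47.3% and 50.0%. Plus-strand prey was 47.1% with 92Q and 48.9% with 10Q (adjusted p = 0.713 by Fisher's exact test).

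Outside 1 Mb of the bait end 262 protein-coding genes held a 92Q junction, 9 held 2 or more and 2 held 3. The 10Q library was expected to hit 122 genes at equal reads, 5.95 of them 2 or more times, and hit 887 and 123 at full depth. Most of the 21775 protein-coding genes thus held no 10Q junction even at full depth, so a 0 with 10Q was the usual value. Interchromosomal junctions numbered 554 with 92Q and 237 expected with 10Q, so the equal-read gene counts do not compare rates per junction. Genes named below were picked for their 92Q counts or their full-depth 10Q counts. Differences in the direction of the pick are therefore in part built in. Acadsb, an acyl-CoA dehydrogenase gene of branched-chain amino acid breakdown on chromosome 7 (131410601 to 131446211), held 3 junctions with 92Q, none in the 10Q or sgRNA-only library and 1 in the non-targeting library. Genes with 2 junctions with 92Q and 0 with 10Q were Ccdc69, Nek1, a kinase gene of cilia and the DNA damage response, Scn8a, a neuronal sodium channel gene, Sdk1, a synaptic adhesion gene, Sh2d2a, a T-cell adaptor gene, and Eya2, a transcriptional coactivator and phosphatase gene. Both junctions were well mapped in Ccdc69 and Eya2, 1 of 2 in Sdk1 and none in Nek1, Scn8a and Sh2d2a. Eya2 held 1 with the sgRNA alone, and the other 5 held 0 there and in the non-targeting library. In the other direction, Cfap97d2 held 8 junctions with 10Q (0.857 expected at equal reads), none of them well mapped, and 1 with 92Q. Chl1, a neural adhesion gene, and Kalrn, a synaptic exchange factor gene, held 6 each with 10Q (0.638 and 0.507 expected; 0 and 2 of them well mapped) and 1 each with 92Q. No gene was tested singly, and each of these 92Q junctions rests on 1 read.

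The gene lists held few junctions at this depth, and no list was tested. Long neural genes, which replicate late and are prone to breakage, held 8 junctions in 6 of 44 members with 92Q, 0.980% of its junctions. With 10Q they held 104 in 28 members at full depth and 10.9 expected at equal reads, 1.39% of its junctions there. Of all 21775 protein-coding genes, 262 held a 92Q junction outside 1 Mb of the bait end, and 887 a 10Q junction at full depth. The list was made of long genes and no count was scaled to gene length, so the numbers of members hit describe no trait of the list. Off chromosome 14, where distance to the bait plays no part, 35 members held 3 junctions with 92Q (0.368%), 1 each in Cntnap2, Pcdh15 and Wwox. With 10Q, 2.63 were expected (0.336%). These list percentages are of all junctions, chromosome 14 included. Interchromosomal junctions numbered 554 with 92Q and 237 expected with 10Q, so that difference enters both percentages. They therefore do not compare rates among interchromosomal prey. Lrp1b, a lipoprotein receptor gene, held 4 with 10Q (0.361 expected) and 0 with 92Q. It and the long neural members named next were picked for their full-depth 10Q counts, so lower 92Q values are in part built in. Ctnna2 and Tenm3 held 2 each with 10Q and 0 with 92Q, and Cntnap2 2 and 1. On chromosome 14, Nrg3 held 3 and Cacna2d3 2 with 10Q, and both 0 with 92Q. Genes of double-strand break repair held 2 junctions with 92Q, in Xrcc4, a ligase IV cofactor gene, and Rnf8, a ubiquitin ligase gene of the break response. They held 5 with 10Q (0.497 expected), among 41 members, 0.245% and 0.0635% of all junctions at equal reads. All of these junctions lay off chromosome 14, so the same limit holds for their percentages. SAGA complex genes held 0 junctions with 92Q and 1 with 10Q, in Trrap, among 22 members. Atxn7 itself, on chromosome 14, held 0 in both and 1 with the sgRNA alone.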

How the data were processed

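Members, gene lists and tests were chosen with earlier results of these data known. Per the labels, 1 pooled library stood on each side. The authors deposited on-cut and off-cut lists of aligned reads, whose measured value is a score, the mapping quality (0 to 42). The submitters' processing notes list Bowtie2 and 2 mouse builds, mm10 and mm9; tool version, filters, duplicate removal and the on-cut rule are not stated in the labels. Positions were read as mm10, and RefSeq genes of GRCm38.p6 gave the annotation (21775 protein-coding; 340 entries in the first 3 Mb dropped). The lists of a library were joined; reads on other contigs (3 with 92Q, 13 with 10Q) count in the totals but give no junction.

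Thinning used the hypergeometric chance that a junction keeps a read, and expected numbers were rounded for Fisher's exact tests (two-sided), adjusted by Benjamini-Hochberg over 10 shares and over 19 chromosomes (threshold 0.05; SciPy 1.17.1). Clopper-Pearson 95% intervals are exact; ratios have exact conditional binomial ones. The code was tested on simulated data. Named genes were up to 10 per library with most junctions in the body beyond 1 Mb (at least 2 with 92Q, 3 with 10Q), and members of 3 lists with 2; some list members are not reported here by name. Alternatives numbered 10, with 1 added after seeing the data (without the Dach2 position).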

Additional observations from a re-analysis of the deposited data

How the results depend on the processing

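The interchromosomal difference kept its direction under all 11 alternatives, between 12.9 and 40.6 points, and its call under 10 of them; with 2 or more reads per junction it was 12.9 (adjusted p = 0.0905 by Fisher's exact test). The equal-read ratio of junctions lay between 0.963 and 1.32, the latter with positions within 5 bp merged, run on the single draw because merging needs whole reads. Without thinning, the chromosome 14 differences within 10 kb, 100 kb and 1 Mb turned to 10.4, 7.33 and 5.15 points, the near plus-strand difference to 4.16 and the well-mapped one on chromosome 14 to -7.41, the first, second and last of these now past the threshold, and calls also appeared for outer plus-strand prey (-15.6), well-mapped (5.35) and genic (7.59) interchromosomal prey and 1 chromosome. Merged within 5 bp, the 3 distance differences were 7.74, 6.37 and 5.30, outer plus-strand prey -23.1 (called) and interchromosomal plus-strand prey 3.12. With 2 or more reads the 3 were 19.1, 15.1 and 15.4, near plus-strand prey 12.1, interchromosomal plus-strand prey 2.49, and well-mapped prey -6.67 on chromosome 14 and -6.85 elsewhere. In the single draw outer plus-strand prey was -22.3 (called), interchromosomal plus-strand prey 3.06 and well-mapped chromosome 14 prey -0.553. Counted as reads, calls appeared for outer plus-strand (-15.1), well-mapped (7.13) and genic (5.40) prey and 2 chromosomes. Without positions near non-targeting junctions the differences within 10 and 100 kb were 2.87 and 0.194; with mapping quality 30 the genic one was -2.65; in the off-cut list the well-mapped chromosome 14 one was -3.88. The cause of these changes was not tested. No paired analysis was possible because each condition is 1 pooled library. The 92Q depth limits every value for single genes and chromosomes.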
